A study of Homo sapiens with 4 samples.

Results

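The numbered zinc finger genes carry symbols of the form ZNF followed by a number, a name given to genes for proteins with C2H2 zinc fingers. The deposited table lists 527 such symbols among 26830, and 69 of them had a mean of at least 1 TPM (a transcript level scaled by transcript length and by the library's total) over the 4 libraries of the study and are described here. These 69 genes were chosen by their mean level over all libraries, Flag-IP included, so their levels are given as a description. A gene that reached the level only through the Flag-IP libraries had to be higher there: 45 of the 69 had an input mean under 1 TPM and 24 had an input mean of at least 1 TPM. Of the other 458 symbols, 87 had a mean of 0.5 to under 1 TPM, 243 a lower mean above 0, and 128 were listed at 0 in every library. All 69 genes matched a protein-coding gene of the GENCODE 29 annotation by name.

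The study measured RNA bound by ALKBH5, an enzyme that removes the methyl group of N6-methyladenosine (m6A) from RNA, by RNA immunoprecipitation and sequencing. NOMO-1, an established human acute myeloid leukaemia line with monocytic features, was the source of every library. Both Flag-IP libraries, numbered 1 and 3, hold RNA recovered with an anti-Flag antibody after UV crosslinking, and both input libraries, also numbered 1 and 3, hold total RNA with no antibody. All 4 come from cells transduced with a lentivirus that expresses Flag-tagged ALKBH5 from its coding sequence, selected with puromycin and sorted for GFP, so input cells overexpress ALKBH5 too, and the labels name no step that picked a clone. No pull-down from untagged cells was analysed here, so a difference between Flag-IP and input holds everything that separates the pulled-down RNA from total RNA. The labels do not say that the numbers stand for separate cultures, so the p-values cover only how far these libraries spread, possibly for technical reasons. In bulk samples, fewer cells with a transcript and less of it per cell cannot be told apart.

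C2H2 zinc fingers are short protein loops in which a pair of cysteines and a pair of histidines hold a zinc ion, and tandem arrays of them read DNA sequence. The largest human class joins the array to a KRAB domain, which recruits the corepressor TRIM28 and, through it, the methyltransferase SETDB1 to silence transposable elements and other loci. Numbered genes outside that class include chromatin regulators, RNA-binding proteins, a SUMO ligase and factors of the ribosome, and some carry only isolated fingers.

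The repeat that gives the genes their name is printed here for 3 genes that were higher in Flag-IP and for the higher gene in which a KRAB pattern was found. It is also printed for 3 genes that were lower relative to the median gene. Each line holds the codons of 1 finger, from its first cysteine to its last histidine, inside a single coding exon of the GENCODE 29 transcripts on GRCh38, written 5′ to 3′ on the gene's strand with the cysteine and histidine codons in capitals. Fingers are numbered from the start of the protein, and the ZNF692 line is its second because no earlier one lay in 1 exon.
ZNF335 finger 1, chr20:45967744-45967809, minus strand: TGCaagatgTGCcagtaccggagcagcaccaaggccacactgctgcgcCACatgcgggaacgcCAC
ZNF236 finger 1, chr18:76849591-76849653, plus strand: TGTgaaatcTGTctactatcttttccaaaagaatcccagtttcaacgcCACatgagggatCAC
ZNF692 finger 2, chr1:248853941-248854009, minus strand: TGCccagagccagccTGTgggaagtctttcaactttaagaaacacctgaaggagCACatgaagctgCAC
ZNF460 finger 1, chr19:57291133-57291195, plus strand: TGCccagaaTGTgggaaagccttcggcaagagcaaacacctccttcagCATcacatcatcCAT
ZNF146 finger 1, chr19:36236492-36236554, plus strand: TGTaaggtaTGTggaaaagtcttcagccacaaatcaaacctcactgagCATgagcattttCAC
ZNF768 finger 1, chr16:30525291-30525353, minus strand: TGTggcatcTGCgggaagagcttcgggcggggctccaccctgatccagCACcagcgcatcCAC
ZNF581 finger 1, chr19:55644836-55644898, plus strand: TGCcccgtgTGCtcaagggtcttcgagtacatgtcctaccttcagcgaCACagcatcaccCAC
The spacing between the capital letters is the same in ZNF236, ZNF460, ZNF146, ZNF768 and ZNF581, whose printed fingers are 63 bases long. The printed finger is 66 bases long in ZNF335 and 69 bases long in ZNF692. With the pattern of a cysteine, 2 to 4 residues, a cysteine, 12 residues, a histidine, 3 to 5 residues and a histidine, the 69 proteins held a median of 8 fingers. ZNF142 held 31, the most, and 7 proteins held 1 finger. ZNF330 matched the pattern nowhere, and it is a member by its name alone.

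A KRAB A box pattern was present in 19 of the 69 genes (27.5%) against 54.6% of the 504 numbered genes with an annotated coding sequence. The pattern is a strict spacing of residues and can miss the domain. ZKSCAN1, from a family named for KRAB and SCAN domains, did not match it. Chromosome 19, which carries large clusters of KRAB genes, held 19 of the 69 (27.5%) against 47.6% of the 523 symbols that the annotation placed. Levels were low. The highest mean belonged to ZNF207 with 5.91 TPM, 3 genes had a mean of at least 5 TPM and 24 had one of at least 2 TPM. Just inside the level of 1 TPM were ZNF574 (1.04), ZNF507 (1.03), ZNF32 (1.02) and ZNF629 (1.00). Just outside it were ZNF511 (0.985), ZNF280D (0.980), ZNF639 (0.965) and ZNF12 (0.963).

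In every library most of the deposited TPM belonged to structural RNAs, such as ribosomal, 7SL and small nuclear RNA. Their share was 92.5% and 93.6% in Flag-IP against 96.8% and 96.4% in input, and a level of 1 TPM was reached by 7970 and 7249 symbols in Flag-IP against 4076 and 4543 in input. TPM adds up to the same total in each library, and as deposited both Flag-IP values lay above both inputs in 93.1% of the genes tested. Differences are therefore given on a median-ratio scale, which sets the typical gene equal between libraries, as Flag-IP minus input of log2(TPM divided by the library's size factor, plus 1). Each difference and its standard error (SE) rest on 2 libraries a group. Adding 1 makes the difference of a low gene smaller than that of its ratio. The depth of the libraries is unknown, because TPM keeps no read numbers. Of 15 myeloid markers, 10 and 9 in Flag-IP and 8 and 9 in input were at 1 TPM or more, and the 15 summed to 137.7 and 130.1 TPM in Flag-IP against 76.9 and 91.0 TPM in input. CD14 was listed at 0 in all 4 libraries and MPO did not pass 0.13 TPM. The 13 markers of other cells summed to 24.6 and 26.2 TPM in Flag-IP against 12.7 and 15.7 TPM in input, and NKG7, a gene of cytotoxic granules, made up most of that at 21.98 and 23.87 TPM in the Flag-IP libraries and 12.02 and 14.6 TPM in the inputs. The part of other cells in the values below was not tested.

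Summed over all 527 symbols, numbered zinc finger genes took 394.2 and 311.7 TPM in Flag-IP libraries 1 and 3 against 125.5 and 145.0 TPM in input libraries 1 and 3. The means were 352.9 ± 58.3 TPM in Flag-IP and 135.2 ± 13.8 TPM in input (SD, n = 2 each), a ratio of 2.61. As a share of the TPM outside structural RNA the family took 0.526% and 0.486% in Flag-IP against 0.392% and 0.397% in input, a ratio of 1.28. The groups did not overlap on either measure. As deposited, both Flag-IP values also lay above both inputs in 93.1% of all genes tested. The median ratio of means over those genes was 2.38, and all TPM outside structural RNA had a ratio of 2.03. A gene at that median thus also took a larger share outside structural RNA in Flag-IP. The 69 genes gave 224.9 and 183.6 TPM in Flag-IP against 70.1 and 80.9 TPM in input, a ratio of 2.71. The 458 symbols below the level, whose choice used the same values in the other direction, gave 169.3 and 128.1 TPM in Flag-IP against 55.4 and 64.1 TPM in input, a ratio of 2.49. A level of 1 TPM in a single library was met by 127 and 91 numbered symbols in Flag-IP and by 21 and 29 in input.

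Relative to the median gene, 17 of the 69 genes (24.6%) were higher in Flag-IP and 9 (13.0%) were lower at an adjusted p below 0.05 (limma, Benjamini-Hochberg over all 6487 genes tested), and 43 did not pass. Over all genes tested 22.3% were higher and 18.6% lower, and over the 5227 tested genes within the same range of levels 23.7% were higher and 14.3% lower. In this fit the share of zinc finger genes called was thus near that of other genes of their level in both directions. In the fit filtered on inputs, described below, 10 of 24 were higher, against 18.3% of all genes there, which were not matched on level. Before that filter the same 24 genes already held 9 higher and 6 lower calls. The median difference of the 69 genes was 0.08, within a range of -1.01 to 1.40, beside a median of -0.01 over all genes tested and 0.03 within the same range of levels. Both Flag-IP values lay above both input values in 33 genes and below them in 21, and the groups overlapped in 15, beside 37.0% above and 37.1% below over all genes tested. Leaving out 1 library lowered the 17 higher calls to 7 without Flag-IP 1, 9 without Flag-IP 3, 10 without input 1 and 13 without input 3. The 9 lower calls became 5 without Flag-IP 1, 5 without Flag-IP 3, 6 without input 1 and 8 without input 3.

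On the deposited scale 58 of the 69 genes were higher, against 86.6% of all genes tested, and 0 were lower, against 0.74% of all (limma; 0 also at an unadjusted p below 0.05). There the median difference was 0.81 beside 0.84 over all genes tested, and the median ratio of Flag-IP to input means was 2.71 beside 2.38. With the typical gene that far above 0, genes higher relative to the median gene are higher on that scale too. Of the 9 lower genes, ZNF146 was higher on it and the other 8 did not pass. Where a fit kept only genes with an input mean of at least 1 TPM, which the high Flag-IP values cannot meet on their own, 24 of the zinc finger genes remained in the test. Of those 10 were higher and 3 lower, against 18.3% and 15.1% of all genes in that fit, with a median of 0.24 beside -0.02 over all genes in it. Before that filter the same 24 held 9 higher and 6 lower calls, with a median of 0.10. When structural RNAs were left out before scaling, 32 of the 69 were higher and 5 lower, against 35.1% and 11.3%, and the median was 0.39 beside 0.24 over all genes. That fit rescaled the remaining TPM to a common total, with no median-ratio step, so values were larger when 1 was added. Its differences are therefore less reduced in low genes and are not on the median-ratio scale.

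**Figure D1:**
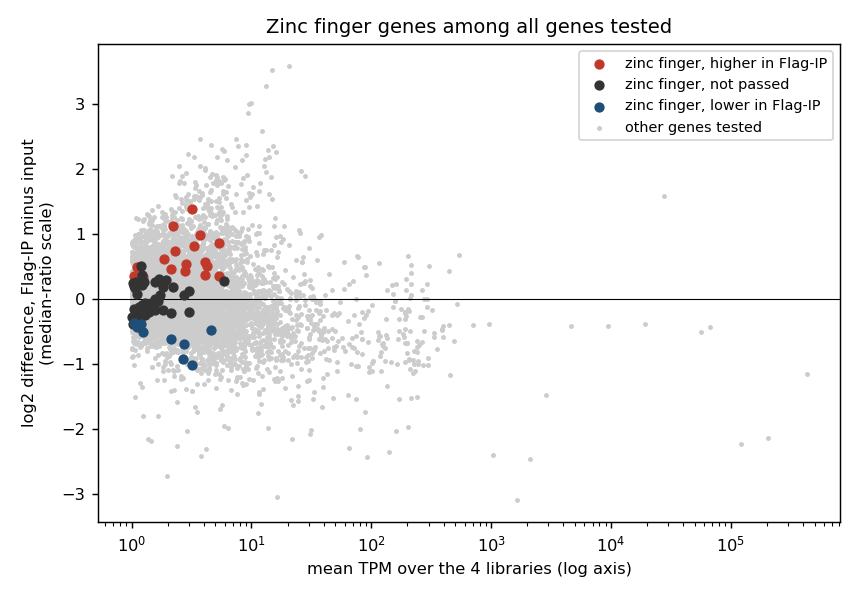
Mean level over the 4 libraries (TPM, log axis) against the difference between Flag-IP and input on the median-ratio log2 scale, for the 69 numbered zinc finger genes (coloured by call) over all genes tested (grey). The 17 higher and 9 lower genes lie on both sides of 0 among genes of like level, and on the deposited scale 7 of the 9 lower genes have a difference above 0.

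The 6 genes whose call held most widely had no KRAB pattern. ZNF335, a subunit of a complex that methylates histone H3 and a gene of cortical development, had 5.90 and 5.84 TPM in Flag-IP against 0.44 and 0.63 TPM in input, 10.97 times as much by the means. It lies on chr20:45948653-45972172 on the minus strand and has 28 exons and 13 fingers. Its difference was 1.40 ± 0.12 (SE; limma adjusted p = 0.00109). Both Flag-IP values stood far above both inputs, and the gene entered the set through Flag-IP alone. ZNF236, on chr18:76822607-76970727 on the plus strand, has 30 fingers in 31 exons. It had 4.31 and 3.76 TPM in Flag-IP against 0.43 and 0.40 TPM in input, a ratio of 9.72 and a difference of 1.13 ± 0.10 (limma adjusted p = 0.00123). As with ZNF335, both inputs were under 1 TPM. ZNF692, also called AREBP and known as a repressor of gluconeogenic genes, had 6.7 and 6.0 TPM in Flag-IP against 0.85 and 1.21 TPM in input, with a difference of 0.98 ± 0.11 (limma adjusted p = 0.00217).

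ZNF638 (NP220), a large nuclear protein that binds cytidine-rich DNA and silences unintegrated retroviral DNA, had a higher mean level than those 3. It had 11 and 6.94 TPM in Flag-IP against 1.46 and 1.97 TPM in input. The 2 Flag-IP libraries were apart from each other, yet both exceeded the inputs, and the difference was 0.87 ± 0.14 (limma adjusted p = 0.00553). ZNF592 and ZNF687 bind the chromatin reader ZMYND8 in a common complex. ZNF592 had 6.14 and 5.01 TPM in Flag-IP against 1.00 and 1.07 TPM in input, a difference of 0.81 ± 0.10 (limma adjusted p = 0.00246). ZNF687 had 3.40 and 2.77 TPM in Flag-IP against 0.54 and 0.69 TPM in input, a difference of 0.61 ± 0.10 (limma adjusted p = 0.00552). So both partners were higher, without overlap between the groups, though 93.1% of all genes tested also had Flag-IP above input as deposited. Exons of ZNF687 overlap those of PI4KB on the other strand, which had a mean of 3.45 TPM. These 6 genes, ZNF335, ZNF236, ZNF692, ZNF638, ZNF592 and ZNF687, kept an adjusted p below 0.05 under every setting in which they were tested, each library left out in turn included.

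The other 11 higher genes lost the call when at least 1 library was left out. ZNF76, a relative of the transcription activator ZNF143, had 3.71 and 4.05 TPM in Flag-IP against 0.56 and 0.88 TPM in input, a difference of 0.74 ± 0.15 (limma adjusted p = 0.0106, and 0.0532 without Flag-IP 3). ZNF121 had 7.83 and 5.41 TPM in Flag-IP against 1.51 and 1.73 TPM in input, a difference of 0.57 ± 0.11 (limma adjusted p = 0.0103, and 0.0605 without Flag-IP 1). For ZNF609, which in mouse cells is known to bind the cohesin loader NIPBL and Integrator, the values were 5.16 and 4.06 TPM in Flag-IP against 0.99 and 1.24 TPM in input. The difference was 0.54 ± 0.10 (limma adjusted p = 0.00872, and 0.0534 without Flag-IP 1). In these 3 genes 1 library ended the call, and the difference without that library was 0.57 for ZNF76, 0.46 for ZNF121 and 0.50 for ZNF609.

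ZNF451, a SUMO ligase that extends SUMO chains, rested on Flag-IP 1 in particular. It had 8.64 and 4.80 TPM in Flag-IP against 1.56 and 1.86 TPM in input, a difference of 0.51 ± 0.16 (limma adjusted p = 0.0476). Without Flag-IP 1 the difference was 0.28 (limma adjusted p = 0.177), without input 1 the adjusted p was 0.115 and without input 3 it was 0.109. ZNF217, an oncogene that works with the demethylase KDM1A and CoREST, had 3.68 and 3.15 TPM in Flag-IP against 0.71 and 1.00 TPM in input, a difference of 0.47 ± 0.11 (limma adjusted p = 0.0174). Its adjusted p was 0.0670 without Flag-IP 1, 0.0824 without Flag-IP 3 and 0.0733 without input 1. ZNF18, a SCAN domain gene, had 2.20 and 1.56 TPM in Flag-IP against 0.42 and 0.29 TPM in input, with a difference of 0.50 ± 0.12 (limma adjusted p = 0.0220). Leaving out Flag-IP 1, Flag-IP 3 or input 3 ended its call, with an adjusted p of at most 0.0785.

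Among the most abundant genes, ZNF106 and ZNF318 were higher by a smaller margin and lost the call when any 1 library was left out. ZNF106, an RNA-binding protein, had 7.26 and 5.48 TPM in Flag-IP against 1.79 and 1.98 TPM in input, a difference of 0.37 ± 0.10 (limma adjusted p = 0.0300, and 0.0738 to 0.133 with 1 library left out). ZNF318, whose mouse counterpart controls the IgM to IgD switch of the immunoglobulin transcript, had 9.02 and 7.41 TPM in Flag-IP against 2.20 and 2.89 TPM in input, a difference of 0.35 ± 0.11 (limma adjusted p = 0.0398, and 0.0680 to 0.178). ZNF362 and ZNF142 behaved likewise. ZNF362 differed by 0.35 ± 0.09 (limma adjusted p = 0.0286, and 0.0566 to 0.0910 with 1 library left out). ZNF142 differed by 0.34 ± 0.09 (limma adjusted p = 0.0314, and 0.0665 to 0.102), and its exons overlap BCS1L on the other strand, which had a mean of 2.20 TPM. ZNF207 (BuGZ), a partner of the checkpoint protein BUB3 and the most abundant of all, did not pass. It had 9.73 and 8.04 TPM in Flag-IP against 2.64 and 3.22 TPM in input, a difference of 0.28 ± 0.10 (limma adjusted p = 0.0645). It passed as higher under the filter of 5 TPM (0.46, adjusted p = 0.0136), the filter on inputs (0.45, 0.0174), quantile scaling (0.32, 0.048), with structural RNAs left out (0.58, 0.0048) and as deposited (1.33, 2.62e-09). Its sign turned to -0.25 (adjusted p = 0.108) once the trend with transcript length was removed.

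With the trend on transcript length removed, 7 of the 17 higher genes lost the call. ZNF609 then differed by 0.22 (limma adjusted p = 0.139), ZNF121 by 0.31 (0.0801), ZNF217 by 0.26 (0.106) and ZNF451 by 0.15 (0.490). ZNF142 differed by 0.12 (0.283), ZNF318 by 0.07 (0.660) and ZNF106 by -0.03 (0.862). Without the filter on low values 8 lost it, namely ZNF76, ZNF451, ZNF217, ZNF18, ZNF106, ZNF318, ZNF362 and ZNF142, at adjusted p-values of 0.0532 to 0.135. Under quantile scaling ZNF451 (0.48, 0.0825), ZNF18 (0.27, 0.104), ZNF362 (0.14, 0.278) and ZNF142 (0.18, 0.176) lost it. All 17 kept the call with structural RNAs left out.

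**Figure D2:**
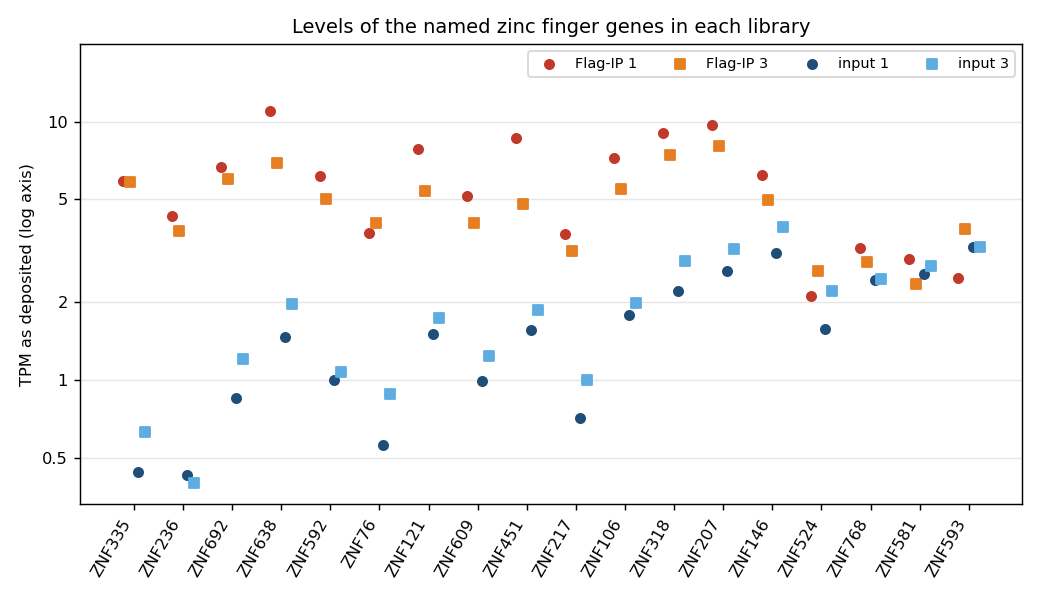
Levels of the named zinc finger genes in each library (deposited TPM, log axis, 1 point per library, Flag-IP left of input), ordered by difference on the median-ratio scale. Flag-IP points of ZNF335 (5.90 and 5.84 TPM) and ZNF236 (4.31 and 3.76 TPM) stand apart from inputs of at most 0.63 TPM, while those of ZNF581 (2.94 and 2.36 TPM) fall around inputs of 2.57 and 2.77 TPM.

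The 19 genes with the KRAB pattern held 1 higher call and 0 lower ones, with a median difference of 0.21, and 18 did not pass, beside 22.3% higher and 18.6% lower over all genes tested. At an unadjusted p below 0.05 (limma) 7 of the 19 were higher and 0 lower, beside 26.6% and 24.5% of all. The 50 genes without it held 16 higher and 9 lower calls, with a median of 0.04. These counts are a description, and the difference between the classes was not tested. Of the 19, all but ZNF282, ZNF317 and ZNF460 had an input mean under 1 TPM. The 45 members with such an input mean held 8 higher and 3 lower calls, and 75.6% did not pass. The part of level in these counts was not tested. Genes without the pattern may still carry the domain, so the counts hold for the pattern and not for all KRAB genes. ZNF460, on chromosome 19, was the higher gene with the pattern. It had 4.88 and 4.0 TPM in Flag-IP against 1.07 and 1.31 TPM in input, a difference of 0.44 ± 0.10 (limma adjusted p = 0.0156). Its adjusted p was 0.0744 without Flag-IP 1, 0.0707 without Flag-IP 3 and 0.0637 without input 1. The KRAB genes ZNF248 and ZNF124 did not pass. ZNF248 had 1.89 and 2.05 TPM in Flag-IP against 0.19 and 0.65 TPM in input, a difference of 0.51 ± 0.20 (limma adjusted p = 0.0831), with inputs that differed from each other. ZNF124 had 2.12 and 1.77 TPM in Flag-IP against 0.34 and 0.63 TPM in input, a difference of 0.38 ± 0.12 (limma adjusted p = 0.0522). The inputs decided both values: without input 3 both passed, ZNF248 at 0.84 (adjusted p = 0.0145) and ZNF124 at 0.55 (0.0272), and without input 1 neither did, ZNF248 at 0.25 (0.268) and ZNF124 at 0.26 (0.188). Both also passed with structural RNAs left out, ZNF248 at 1.36 (limma adjusted p = 0.0172) and ZNF124 at 0.99 (0.0111). Those differences are on that fit's own scale, where the median over all genes was 0.24. ZNF124 also passed with the length trend removed, at 0.56 (limma adjusted p = 0.0155).

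ZNF274 and ZNF445, which have the KRAB pattern and known targets, did not pass either. ZNF274, which brings SETDB1 to the 3′ ends of other zinc finger genes, had 3.26 and 2.76 TPM in Flag-IP against 0.92 and 0.87 TPM in input, a difference of 0.30 ± 0.11 (limma adjusted p = 0.0736). ZNF445, which maintains genomic imprints, had 2.07 and 1.70 TPM in Flag-IP against 0.56 and 0.60 TPM in input, a difference of 0.22 ± 0.09 (limma adjusted p = 0.112). Neither pair of groups overlapped in TPM, and as deposited both Flag-IP values lay above both inputs in 93.1% of all genes tested. With structural RNAs left out ZNF274 (0.70, limma adjusted p = 0.0118) and ZNF445 (0.64, 0.0319) passed as higher. For ZNF445 the sign turned to -0.45 (limma adjusted p = 0.00743) once the trend with transcript length was removed. Among the genes with the KRAB pattern the lowest difference was that of ZNF8, at -0.24 ± 0.10 (limma adjusted p = 0.1), and 0.46 as deposited. ZNF8 passed as lower under quantile scaling (-0.36, limma adjusted p = 0.0327) and with the length trend removed (-0.58, 0.00643).

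The 9 lower genes were lower relative to the median gene, whereas on the deposited scale 7 of them had a difference above 0 and the other 2, ZNF593 and ZNF581, differed by -0.06 and -0.01. None of them matched the KRAB pattern, which can miss the domain. ZNF593, a single-finger relative of the yeast ribosome assembly factor Bud20, lies on chr1:26169871-26170873 on the plus strand. It had 2.47 and 3.84 TPM in Flag-IP against 3.26 and 3.28 TPM in input, so the groups overlapped in TPM. After scaling it stood at 1.43 and 2.74 in Flag-IP against 5.43 and 4.70 in input, a difference of -1.01 ± 0.21 (limma adjusted p = 0.0129). ZNF581, a small protein of 197 codons with 4 fingers on chr19:55635459-55645622 on the plus strand, had 2.94 and 2.36 TPM in Flag-IP against 2.57 and 2.77 TPM in input, a difference of -0.93 ± 0.10 (limma adjusted p = 0.00176). In neither gene did both Flag-IP values lie on 1 side of both inputs as deposited.

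ZNF768, which binds a motif within MIR repeats, had 3.23 and 2.86 TPM in Flag-IP against 2.44 and 2.46 TPM in input. Its deposited difference was 0.23 and its median-ratio difference -0.70 ± 0.11 (limma adjusted p = 0.00553). ZNF593, ZNF581 and ZNF768 kept the lower call with any 1 library left out, though ZNF593 stood at -0.66 (adjusted p = 0.0315) without Flag-IP 1. ZNF593 lost it with the length trend removed (-0.59, 0.0745) and without the filter on low values (-1.03, 0.057). ZNF146 (OZF), a protein made almost only of fingers, had 6.24 and 4.99 TPM in Flag-IP against 3.10 and 3.92 TPM in input, and it passed in opposite directions on the 2 scales. It was higher as deposited (0.55, limma adjusted p = 0.0121) and lower relative to the median gene (-0.48 ± 0.10, limma adjusted p = 0.0135). The second call was lost without Flag-IP 1 (adjusted p = 0.0613), Flag-IP 3 (0.0597) or input 3 (0.0667). ZNF524, a protein that binds telomeric DNA, had 2.11 and 2.63 TPM in Flag-IP against 1.58 and 2.20 TPM in input, with a deposited difference of 0.23 and a median-ratio difference of -0.62 ± 0.16 (limma adjusted p = 0.0233, but 0.112 without Flag-IP 1 and 0.0832 without input 3).

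The remaining 4 lower genes were ZNF394, ZNF672, ZNF428 and ZNF574, with median-ratio differences of -0.50 ± 0.10, -0.43 ± 0.11, -0.38 ± 0.11 and -0.37 ± 0.11 but deposited differences of 0.19, 0.22, 0.30 and 0.27. Their limma adjusted p-values were 0.0103, 0.0271, 0.0322 and 0.0434. ZNF394 lost the call without Flag-IP 3 (0.0580). The other 3 each lost it with any 1 of 3 libraries left out, at an adjusted p of up to 0.131 for ZNF672, 0.125 for ZNF428 and 0.144 for ZNF574. These libraries were Flag-IP 1, input 1 and input 3 for ZNF672, and Flag-IP 1, Flag-IP 3 and input 1 for ZNF428 and ZNF574. With the length trend removed ZNF428 stood at -0.0024 (adjusted p = 0.988), and ZNF394 (-0.31, 0.0544) and ZNF524 (-0.21, 0.322) also lost the call. With structural RNAs left out ZNF146 (0.0703), ZNF428 (0.115), ZNF574 (0.124) and ZNF672 (0.0635) lost it. The filter on inputs ended it for ZNF146 (0.0536), ZNF394 (0.0567) and ZNF524 (0.0627), and the absence of a filter for ZNF428 (0.0762), ZNF524 (0.0754), ZNF574 (0.102) and ZNF672 (0.0762).

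Several other members with a known role did not pass. ZNF622 (a relative of the yeast ribosome assembly factor Rei1) had 2.89 and 2.58 TPM in Flag-IP against 0.88 and 0.97 TPM in input, a difference of 0.18 ± 0.10 (limma adjusted p = 0.188). ZNF598, the ubiquitin ligase that marks collided ribosomes, had 4.4 and 4.47 TPM in Flag-IP against 1.47 and 1.80 TPM in input, a difference of 0.13 ± 0.12 (limma adjusted p = 0.404). ZNF410, an activator of the remodeller gene CHD4, had 2.81 and 2.71 TPM in Flag-IP against 0.89 and 0.91 TPM in input, a difference of 0.22 ± 0.11 (limma adjusted p = 0.167). ZNF330, the member with no finger, had 3.76 and 2.92 TPM in Flag-IP against 1.22 and 1.04 TPM in input, a difference of 0.19 ± 0.13 (limma adjusted p = 0.275). In all 4 the Flag-IP values were above the inputs as deposited, as in 65 of the 69 genes and 93.1% of all genes tested. With structural RNAs left out ZNF622 (0.53, limma adjusted p = 0.038), ZNF330 (0.52, 0.0494) and ZNF410 (0.58, 0.0295) passed as higher. With the length trend removed ZNF622 (0.50, limma adjusted p = 0.0149) and ZNF330 (0.46, 0.0394) did. All 4 passed as higher on the deposited scale, like 86.6% of all genes tested.

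Gene structure, which the choice of the set did not use, ran alongside the difference. Exon number and the coding length classes were, however, chosen after their values were seen. All 9 lower genes had 4 or fewer exons in the transcript with the longest coding sequence, and 16 of the 17 higher genes had more, the exception being ZNF460 with 3. By class, the 11 genes with 12 or more exons held 7 higher and 0 lower calls with a median of 0.51. The 33 genes with 5 to 11 exons held 9 higher and 0 lower calls with a median of 0.22. The 25 genes with 4 or fewer held 1 higher and 9 lower calls with a median of -0.24. Protein-coding genes as a whole showed the same order at the ends: 39.8% higher and 5.77% lower with 12 or more exons, and 2.76% higher and 40.0% lower with 4 or fewer. Those with 5 to 11 exons had 8.66% higher and 25.2% lower calls and a median of -0.14, against 0.22 in zinc finger genes of that class. Across the 69 genes Spearman's rho between exon number and difference was 0.71, and across 5980 protein-coding genes it was 0.57. All genes share the same 4 libraries, genes are not independent replicates, and among the 69 exon number also ran with mean level (rho 0.39), so these are descriptions. At an unadjusted p below 0.05 (limma) the lower calls were also 0 in the classes of 5 to 11 and of 12 or more exons.

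Coding length ran with the difference too, with a rho of 0.37 across the 69 genes and 0.59 across the 5980 protein-coding genes. The 14 zinc finger genes with a coding sequence of at least 3000 bases held 11 higher and 0 lower calls with a median of 0.49, beside 64.6% higher and 1.55% lower of all protein-coding genes of that class. The 10 under 1000 bases held 0 higher and 5 lower calls with a median of -0.38, beside 3.15% and 36.6%. The 45 of 1000 to under 3000 bases held 6 higher and 4 lower calls with a median of 0.07, beside 19.6% and 12.9%. At an unadjusted p below 0.05 (limma) there were still 0 lower calls in the longest class and 0 higher calls in the shortest. The medians over all protein-coding genes were 0.51 in the longest class, -0.26 in the shortest and 0.02 in between. With the trend on transcript length removed, 13 of the 69 were higher and 12 lower, against 19.4% and 15.2% of all genes, with a median of -0.02. The number of fingers ran weakly with the difference (rho -0.08), and the share of the protein taken by fingers had a rho of -0.34. The 13 genes with 0 to 3 fingers held 4 higher and 2 lower calls, the 31 with 4 to 9 held 8 and 3, and the 25 with 10 or more held 5 and 4. The 19 genes on chromosome 19 held 2 higher and 5 lower calls, and the 50 on other chromosomes 15 and 4. Over all genes tested 22.3% were higher and 18.6% lower. The sequence GGACT, a common form of the m6A motif counted here on the transcript strand only, occurred at a median of 0.997 per kb of transcript, beside 0.960 over protein-coding genes. Its density had a rho of -0.11 with the difference. A match is no evidence of methylation at that place.

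**Figure D3:**
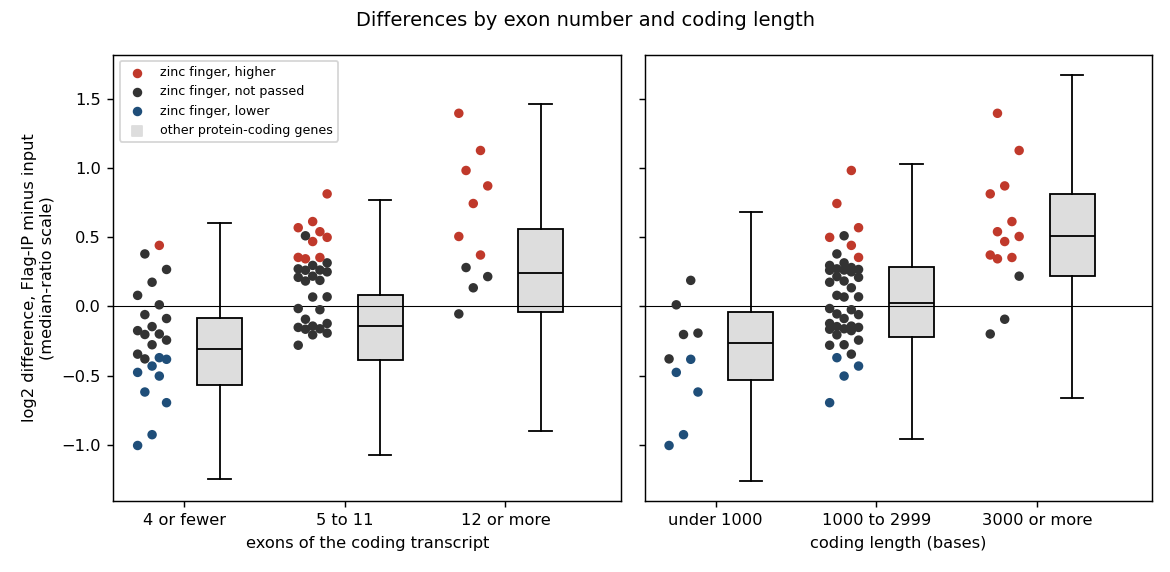
Difference between Flag-IP and input (log2, median-ratio scale) by class of exon number (left) and coding length in bases (right), with each zinc finger gene a point coloured by call and the other tested protein-coding genes a grey box (median, quartiles, whiskers to 1.5 times the box). All 9 lower genes, 7 of which have a deposited difference above 0, sit in the class of 4 or fewer exons. In the class of 5 to 11 exons the points have a median of 0.22, against -0.14 over all protein-coding genes. Exon number and the coding length classes were chosen after their values were seen.

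Partners of KRAB silencing were read from a list of 42 genes, of which 39 were in the table and 37 were tested. Of these 8 were higher (21.6%) and 4 lower (10.8%), beside 22.3% and 18.6% of all genes, with a median difference of 0.06, and as deposited 35 were higher and 0 lower (limma; 0 also at an unadjusted p below 0.05). The 8 higher calls became 3 without Flag-IP 1 or input 1, 4 without input 3 and 5 without Flag-IP 3, and the 4 lower calls became 1 without input 3, 2 without either Flag-IP library and 3 without input 1. TRIM28, the corepressor that KRAB domains bind, was well expressed with 28.1 and 25.9 TPM in Flag-IP against 11.2 and 13.7 TPM in input. Its difference of -0.13 ± 0.11 did not pass (limma adjusted p = 0.367), and its sign turned positive under 5 other settings, the deposited scale (1.06) among them. SETDB1, the H3K9 methyltransferase that TRIM28 recruits, had 6.25 and 5.11 TPM in Flag-IP against 1.30 and 1.70 TPM in input, a difference of 0.49 ± 0.10 (limma adjusted p = 0.0130, and up to 0.0641 with 1 library left out). EHMT1, another H3K9 methyltransferase, had 10.6 and 8.46 TPM in Flag-IP against 1.90 and 2.18 TPM in input, a difference of 0.78 ± 0.10 (limma adjusted p = 0.00261). MORC2, an ATPase that works with the HUSH silencing complex, had 4.32 and 3.28 TPM in Flag-IP against 0.65 and 0.79 TPM in input, a difference of 0.70 ± 0.10 (limma adjusted p = 0.00377).

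CHD3 (0.50), SMARCAD1 (0.39), DNMT1 (0.38), ATF7IP (0.36) and MTA1 (0.32) were the other higher genes of the list. Each of these lost the call when at least 1 library was left out, DNMT1 and MTA1 with any 1. SCAND1, CBX1, SUMO3 and ADNP were lower relative to the median gene, though all 4 had deposited differences above 0. SUMO3 (0.45, limma adjusted p = 0.041) and ADNP (0.62, 0.00506) passed as higher on the deposited scale. ADNP lost the lower call with any 1 library left out, and SUMO3 without Flag-IP 3 or input 3. SCAND1, a short SCAN domain protein, had 1.12 and 1.80 TPM in Flag-IP against 1.09 and 1.65 TPM in input, a difference of -0.66 ± 0.18 (limma adjusted p = 0.0309) and of 0.05 as deposited. It lost the call without Flag-IP 1 (-0.40, adjusted p = 0.133), without input 3 (-0.56, 0.104), with the length trend removed (-0.36, 0.170), with the filter on inputs (-0.55, 0.0807) and without a filter (-0.69, 0.0979). CBX1, an HP1 protein that reads the H3K9 mark, had 1.63 and 1.26 TPM in Flag-IP against 1.05 and 1.40 TPM in input, a difference of -0.58 ± 0.10 (limma adjusted p = 0.00761) and of 0.14 as deposited. The groups overlapped in TPM in both. CHD4, the remodeller whose gene ZNF410 activates, had 24.9 and 20.4 TPM in Flag-IP against 7.45 and 9.05 TPM in input, a difference of 0.18 (limma adjusted p = 0.187). It passed as higher under the filter of 5 TPM (0.38, adjusted p = 0.0209), the filter on inputs (0.37, 0.0329), quantile scaling (0.44, 0.0274), with structural RNAs left out (0.44, 0.00756) and as deposited (1.35, 1.57e-09), and was -0.06 (0.68) with the length trend removed.

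**Figure D4:**
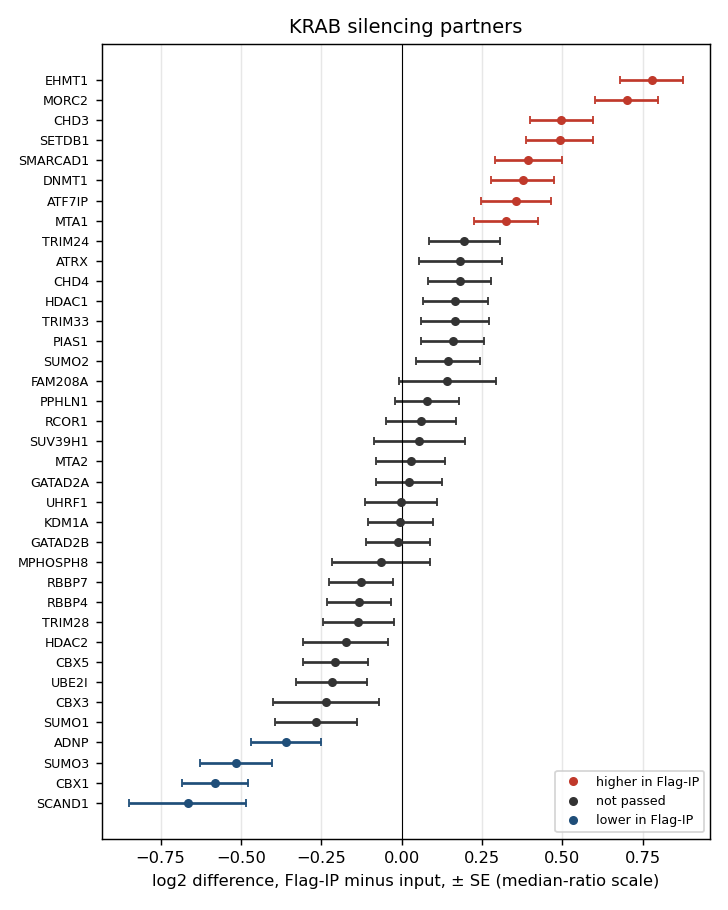
Difference between Flag-IP and input (log2, median-ratio scale, with SE) for the 37 tested genes of the KRAB silencing list, coloured by call. EHMT1 (0.78) and MORC2 (0.70) lie at the upper end and SCAND1 (-0.66, but 0.05 as deposited) and CBX1 (-0.58, but 0.14 as deposited) at the lower end, with TRIM28 at -0.13 (1.06 as deposited).

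Of 121 symbols of other zinc finger families (ZBTB, ZSCAN, ZKSCAN, ZFP, KLF, EGR, SP and IKZF) 15 reached the level and were tested. Of these 5 were higher and 0 lower (limma; 1 lower at an unadjusted p below 0.05), beside 22.3% and 18.6% of all genes tested, with a median of 0.23. As deposited all 15 were higher, beside 86.6% of all. The 5 were all of the tested ZBTB genes, which join a BTB domain to C2H2 fingers: ZBTB40 (0.67, limma adjusted p = 0.00461), ZBTB48 (0.51, 0.0194), ZBTB11 (0.45, 0.0191), ZBTB7B (0.37, 0.0277) and ZBTB17 (0.37, 0.0402). ZBTB40 kept the call with any 1 library left out, and the other 4 did not, so the count was 1 without Flag-IP 1 and 2 without any 1 of the others. SP100, which matches the symbol pattern of the SP family, is a nuclear body gene and has no C2H2 fingers.

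Reads of some of these genes can be shared with other genes. At least 10% of the 50-base words of 9 genes also occurred in another gene. Among them were ZNF410 (83.5%, mostly the readthrough gene AC005520.1), ZNF395 (41.7%, FBXO16), ZNF512 (35.7%), ZNF207 (20.7%) and ZNF581 (16.1%, its neighbour ZNF580). Their values are uncertain for this reason, but the shares do not say by how much. Exons of 39 genes overlapped those of another gene. In 4 of them an overlapping gene with a deposited level had a mean of at least 1 TPM, on the opposite strand each time. Overlapping genes without a deposited level could not be judged. Beside PI4KB and BCS1L these were VRK3 for ZNF473 (3.29 TPM) and CCDC92 for ZNF664 (2.15 TPM). The library kit keeps strand, but the strand setting of the counting is not given in the sources used here.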

How the data were processed

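RNA immunoprecipitation of Flag-tagged ALKBH5 from NOMO-1 cells was measured in 2 Flag-IP and 2 input libraries. Per the labels' protocols, RNA was fragmented by sonication and libraries were made with a stranded mRNA kit. Reads were aligned with STAR and quantified with RSEM on GRCh38, per the submitters' processing notes. Versions, annotation and strand setting: not given in the sources used here. In 1 table the authors deposited TPM values by symbol, of unknown depth, so no counting intervals are given.

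All 6487 genes whose mean reached 1 TPM were divided by median-ratio size factors and tested as log2(scaled TPM + 1), with a pseudocount of 1, in limma 3.58.1 under R 4.3.3 (lmFit, eBayes with a mean-variance trend, prior degrees of freedom 4.02, residual degrees of freedom 2). The two-sided p-values were adjusted by Benjamini-Hochberg over the whole set tested, with a threshold of 0.05. The fit was also run on simulated data in which every gene had the same spread, unlike these data, so that run does not bear on the calls made here. Gene structures came from GENCODE 29 with Python 3.11.15, pandas 2.3.3 and SciPy 1.17.1. Structural RNAs were 2464 symbols of ribosomal, spliceosomal, nucleolar, signal recognition particle and other small RNAs. Where they were left out, the remaining TPM were rescaled to a common total, without size factors, before the pseudocount of 1 was added. The transcript length trend was a loess of span 0.5. Alternatives were a pseudocount of 0.1, other filters (none, a mean of at least 5 TPM, an input mean of at least 1 TPM), other scalings, no variance trend, a replicate block and each library left out.

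The set and the gene lists were chosen with earlier results of these data known. Named by rule were the 8 highest means, up to 10 genes with the largest differences in each direction among called genes whose mean reached 2 TPM and whose groups did not overlap after scaling, the genes around the level, TRIM28, SETDB1 and the outermost list members. Other called genes, genes named for their role, exon number, coding length classes and GGACT density were chosen after their values were seen.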

Additional observations from a re-analysis of the deposited data

How the results depend on the processing

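Of the 69 zinc finger genes, 17 were higher and 9 lower, but 58 and 0 on the deposited scale, 32 and 5 with structural RNAs left out, 10 and 3 of 24 with the filter on inputs, 9 and 4 with no filter, and 3 and 0 of 3 at a mean of at least 5 TPM. Quantile scaling gave 14 lower, and leaving out 1 library gave 7 to 13 higher and 5 to 8 lower. Their median difference was 0.08, but 0.81 as deposited, 0.39 with structural RNAs left out, 0.24 with the filter on inputs, 0.53 at 5 TPM, 0.15 with a pseudocount of 0.1, -0.0078 under quantile scaling, -0.0234 without the length trend and 0.0647 to 0.15 with 1 library left out. Of the KRAB silencing list, 8 were higher, but 35 as deposited, 4 with no filter, with the replicate block or without the length trend, and 3 to 5 with 1 library left out. The 4 lower calls became 0 as deposited and at 5 TPM, 1 with the filter on inputs, 2 with no filter or structural RNAs left out, and 1 to 3 with 1 library left out. Of the other families, 5 were higher, but 15 as deposited, 10 with structural RNAs left out, 3 without the length trend, 1 with the filter on inputs, with no filter or under quantile scaling, and 1 to 2 with 1 library left out. The 0 lower calls became 1 under quantile scaling and 2 without the length trend.

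Of 55 genes recomputed singly, all 55 kept their direction and their side of the threshold with a pseudocount of 0.1 and with no variance trend, against 30 as deposited, 29 without the length trend and 32 with no filter. On the deposited scale, where the median of all genes was 0.84, signs turned for ZNF146 (0.55), ZNF768 (0.23), ZNF524 (0.23), ZNF574 (0.27), ZNF428 (0.30), ZNF672 (0.22), ZNF394 (0.19), ZNF8 (0.46), SCAND1 (0.05), CBX1 (0.14), SUMO3 (0.45), ADNP (0.62) and TRIM28 (1.06). TRIM28 also turned at a mean of at least 5 TPM (0.0713), with the filter on inputs (0.0545), under quantile scaling (0.19) and with structural RNAs left out (0.10). Without the length trend they turned for ZNF207 (-0.25), ZNF106 (-0.0266), ZNF445 (-0.45) and CHD4 (-0.0589). The filters of 5 TPM and on inputs test fewer genes, and leaving out a library tests fewer samples. Otherwise the cause was not tested.

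The labels do not say whether libraries with the same number belong together, and the correlation of their deviations from the group means was -0.187. With the replicate number as a block, 13 zinc finger genes were higher and 8 lower, the median stayed 0.08, and the KRAB silencing list held 4 higher and 3 lower calls and the other families 4 and 0. Under the block ZNF106, ZNF142, ZNF318, ZNF362, ZNF451 and ZNF574 did not pass (adjusted p of 0.0502 to 0.0636), and ZNF248 did (0.0326). With the numbers crossed, a pairing chosen after seeing the data, 16 were higher and 10 lower. TPM gives no depth, so the precision of genes near 1 TPM rests on 2 libraries a group alone.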
